A study of Mus musculus with 4 samples.

Results

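The genes described here encode the class I antigen presentation pathway of the mouse major histocompatibility complex (MHC): the light chain B2m, the heavy chains H2-D1 and H2-K1, the peptide transporter subunits Tap1 and Tap2, the loading factor Tapbp, and the immunoproteasome subunits Psmb8 and Psmb9. They were chosen by symbol, and all array probes named for 1 of these 8 genes were taken. Of the 8 genes, 7 had a probe, with 10 probes in all, out of 17876 genes on the array. B2m had 3 probes and Tapbp had 2. H2-D1 had no probe under its symbol and is not analysed here. A gene was called detected at a detection p-value under 0.01, the array software's measure of whether a signal stands above the negative controls. By that call 6 of the 7 passed on 1 array or more, and B2m and Psmb9 passed on all 4. Psmb8 was detected on none.

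MHC class I molecules show peptides from inside the cell to T cells and natural killer cells. The proteasome cuts proteins into peptides, the TAP transporter carries them into the endoplasmic reticulum, and tapasin, the product of Tapbp, holds the transporter next to newly made heavy chains until a peptide is bound. The heavy chain reaches the cell surface only together with beta-2 microglobulin, the product of B2m. Interferon gamma raises most genes of this pathway, and embryonic stem (ES) cells are known for low class I levels that increase during differentiation.

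RNA came from E14 cells, a mouse ES cell line, that were stably infected with virus expressing an shRNA. The shRNA was either a scrambled sequence, the control, or one against AKAP95, a protein associated with MLL histone methyltransferase complexes and encoded by Akap8. Each population was either kept undifferentiated on gelatin in medium with LIF, the cytokine that maintains ES cells, or differentiated by 4 days without LIF followed by 4 days of 1 µM all-trans retinoic acid (RA) in monolayer. This gave 4 groups with 1 array each, scramble and knockdown cells before RA and both after it. All 4 groups carry an integrated shRNA virus, and the labels name 1 AKAP95 shRNA with no clone or pool. The term RA effect stands for the whole change of culture, since RA, loss of LIF and days in culture cannot be told apart, and neither can RA and array position on the chip.

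The promoter windows of the light chain gene and of the gene pair Tap1 and Psmb9 are shown because B2m and Tap1 rose with RA while Psmb9, the neighbour of Tap1, did not pass the test. They run from 250 bases before to 50 bases after the start site, are RefSeq sequences of build GRCm38.p6, and are printed along the gene's strand. B2m lies at chr2:122147437-122147736 on the plus strand and Tap1 at chr17:34187306-34187605 on the plus strand. Capitals mark matches, on either strand, to 3 short motifs that were chosen with these sequences in view: the core of the interferon-stimulated response element (GAAANNGAAA), the core of the X2 box (TGACG) and the Y box (CCAAT).
B2m: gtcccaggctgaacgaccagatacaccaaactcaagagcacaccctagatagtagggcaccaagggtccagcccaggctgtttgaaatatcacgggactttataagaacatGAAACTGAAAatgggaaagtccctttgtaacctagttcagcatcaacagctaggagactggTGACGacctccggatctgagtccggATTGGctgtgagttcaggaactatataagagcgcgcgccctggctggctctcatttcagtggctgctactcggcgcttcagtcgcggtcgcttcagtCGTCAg
Tap1: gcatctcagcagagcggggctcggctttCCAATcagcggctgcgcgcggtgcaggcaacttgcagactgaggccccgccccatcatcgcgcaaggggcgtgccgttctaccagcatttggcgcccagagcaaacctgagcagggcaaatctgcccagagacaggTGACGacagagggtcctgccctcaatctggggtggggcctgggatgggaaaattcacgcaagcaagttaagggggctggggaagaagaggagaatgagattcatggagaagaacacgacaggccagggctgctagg

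The B2m window holds the response element core at base -139 from the start site, an X2 core at -78, a reversed Y box at -53 and a reversed X2 core at 44. Of 32851 mouse promoter windows of this length, 3.44% hold the response element core, 20.8% the X2 core and 37.4% the Y box. The Tap1 window holds an X2 core at -86 and a Y box at -222. The Psmb9 window, on the opposite strand, shares 275 of its 300 bases with that of Tap1, and the 2 start sites lie 226 bases apart, so the 2 genes are read in opposite directions from 1 stretch of DNA. A further core, GAANTGAAA, is held by 1.83% of windows, and the H2-K1 and H2-D1 windows are among them. The Psmb8 window holds none of these motifs. Psmb9, Tap1, Psmb8 and Tap2 follow one another in the RefSeq gene order with 0 other genes between Psmb9 and Tap2, and all members but B2m lie on chromosome 17.

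Between 44.1% and 47.3% of the 25697 probes were detected per array, and the median signal per array lay between 75.1 and 82.8. Akap8, the targeted gene, had a signal of 272 in undifferentiated scramble cells against 139 in knockdown cells, and of 297 against 199.7 after RA, which are normalized log2 differences of -1.19 and -0.77. All 11 ES cell markers with a probe were detected in both undifferentiated populations, with a summed signal of 91605 and 89301. After RA the sum was 4691 in scramble cells and 14295 in knockdown cells. In these bulk samples, fewer cells of a type and less RNA per cell cannot be told apart. No group had a replicate, so differences between 2 arrays have no test and are described by size. The p-values below come from limma's additive model over all 4 arrays and the 9875 genes detected on at least 1 of them, in which the spread is how far the 2 RA effects of a gene disagree, pooled over genes, and this may be technical. Where 4 signals of a gene are given, they stand in the order scramble then knockdown before RA, scramble then knockdown after RA.

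**Figure D1:**
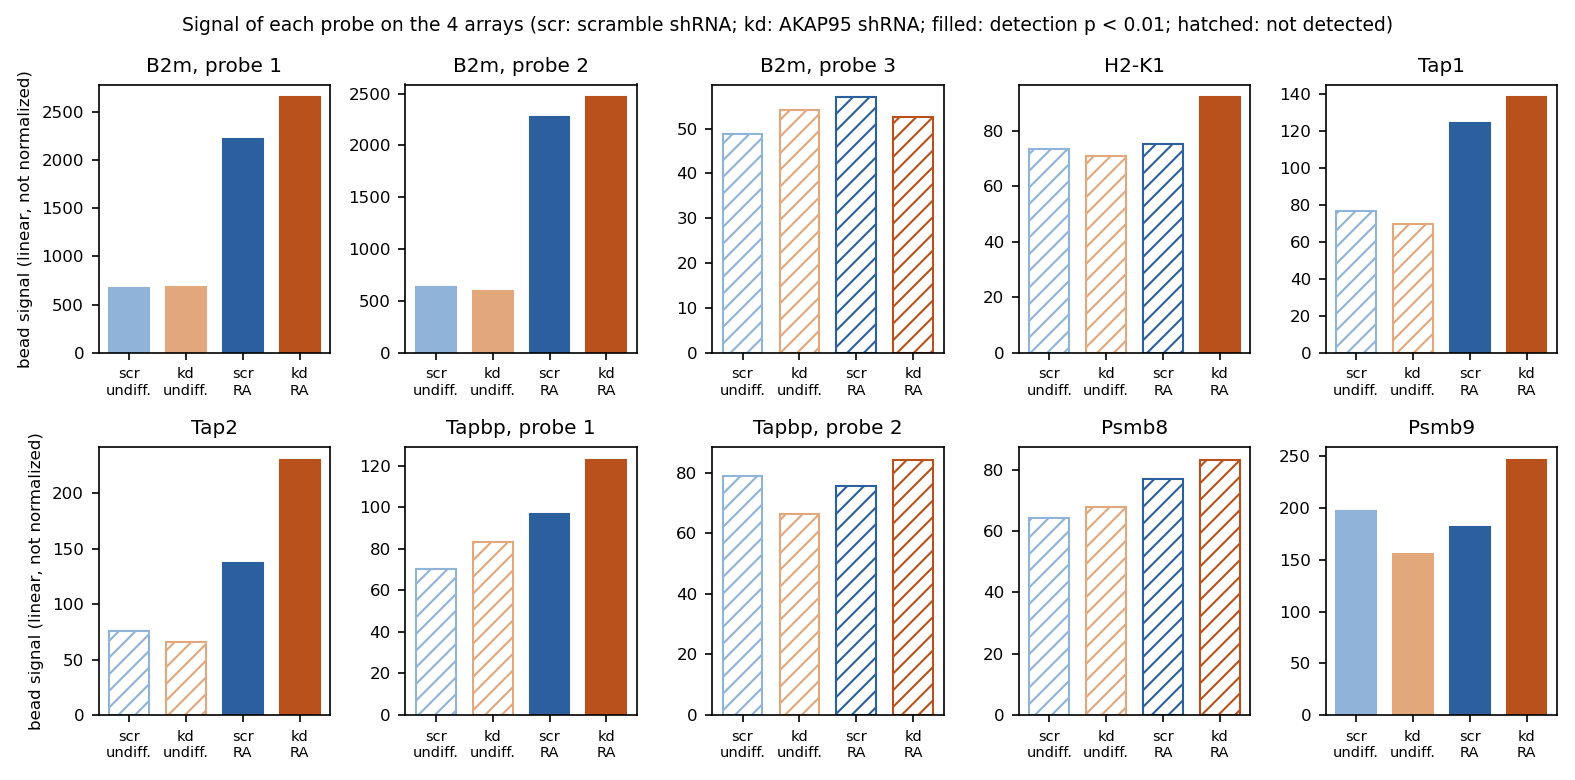
Bead signal, linear and not normalized, of each of the 10 probes on the 4 arrays, with its own vertical axis per probe starting at 0. Filled bars passed the detection p-value of 0.01 and hatched bars did not. B2m probes 1 and 2 show signals from 595 to 684 in undifferentiated cells and from 2222 to 2653 after RA, while B2m probe 3 is not detected on any array.

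B2m, the light chain that every classical class I molecule needs, had the lowest adjusted p of the members for the RA effect. Its first probe gave signals of 674 in scramble and 684 in knockdown cells before RA, and of 2222 in scramble and 2653 in knockdown cells after it. Both RA-treated arrays lay above both undifferentiated arrays. With 2 arrays on each side such an order carries little weight by itself, and its share over all genes is not given here. After normalization B2m was 3.12-fold higher with RA in scramble cells (log2 1.64) and 3.68-fold higher in knockdown cells (log2 1.88). In the limma fit B2m rose with RA by 1.76 on the log2 scale (SE 0.17, adjusted p = 0.0117). The second probe gave 633, 595, 2279 and 2465 and differed with RA by 1.78 and 1.96 on the log2 scale. The third B2m probe, with signals from 48.8 to 57.0, was not above background on any array and gives no level.

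B2m stood high among all genes in this response. In scramble cells 93.6% of the 9509 genes compared had a lower RA difference than B2m, and in knockdown cells 96.7% of 9530. The genes whose normalized values over the 4 arrays lay closest to those of B2m, after centring each gene on its mean and taking the Euclidean distance among 7591 genes detected on all 4 arrays, were Rnf103, Gtpbp2, Tgfbrap1, Smarcc2 and Zer1, at distances of 0.107 to 0.141 log2 units.

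H2-K1, a classical heavy chain that pairs with the B2m product, stayed near background. Its signals were 73.6, 71.1, 75.1 and 92.1 on the 4 arrays. Only the last passed detection (detection value 0.00501), so neither RA comparison gave a fold for it. In the limma fit its RA term was 0.155 (SE 0.23, adjusted p = 0.622). Class I heavy chain genes are close copies of one another, and which of them the probe can bind was not tested here, since no probe sequences were used.

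The TAP transporter subunits went from background to detected with RA. Tap1 had signals of 76.6 and 69.3 in undifferentiated scramble and knockdown cells, neither of which passed detection, and of 124 and 138 after RA, which both did. Where 1 side of a comparison was not detected, that side was raised to the lowest detected value of its array, and the difference is then a lower bound under the background correction used. Tap1 was at least 1.51-fold higher with RA in scramble cells and at least 1.72-fold higher in knockdown cells. Tap1 rose with RA in the limma fit by 1.24 on the log2 scale (SE 0.21, adjusted p = 0.0243). The fit takes the undetected values as measured. The size of the term rests on the background correction: it was 0.56 without that correction and 0.61 with the deposited median-normalized values, still past the threshold.

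Tap2, which forms the transporter together with Tap1, had signals of 75.4 and 66.1 in undifferentiated scramble and knockdown cells, both not detected. After RA it reached 137 in scramble cells and 230.5 in knockdown cells. The RA-treated arrays were again both above the undifferentiated ones, and the RA-treated knockdown array stood highest. Detection on the RA-treated arrays alone favours such an order, and its share over all genes is not given here. Tap2 was at least 1.76-fold higher with RA in scramble cells and at least 3.40-fold higher in knockdown cells. In the limma fit it rose by 1.93 on the log2 scale (SE 0.38, adjusted p = 0.0321), by 0.98 without background correction, by 1.05 with the deposited values and by 1.22 with an offset of 50. Without background correction the bound in knockdown cells was 1.02 on the log2 scale, against 1.77 with it. The limma call was lost when all 17876 genes were tested with no filter on detection (adjusted p = 0.0745).

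Tapbp, which bridges the transporter and the heavy chain, had signals of 70.5 and 83.1 in undifferentiated scramble and knockdown cells, both not detected, and of 96.6 and 123 after RA, both detected. With RA it was at least 1.43-fold higher in knockdown cells, while in scramble cells its detected value lay too close to the background level to give a bound. Its RA term was 0.62 (SE 0.16, adjusted p = 0.0557), just short of the threshold, and passed it with median scaling of the arrays (0.71, adjusted p = 0.0415) and with no filter (adjusted p = 0.0491). The term was smaller without background correction (0.270, adjusted p = 0.150) and with the deposited median-normalized values (0.325, adjusted p = 0.118). With the mean of all probes it was 0.330 (adjusted p = 0.217), and with RA as the only term the adjusted p was 0.156. The second Tapbp probe, with signals from 66.3 to 84.3, was not detected on any array.

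Of the immunoproteasome subunits, Psmb9 did not pass the test with RA and Psmb8 was not detected. Psmb9 replaces a catalytic subunit of the standard proteasome and was detected on all 4 arrays, with signals of 197, 156, 182 and 247. The undifferentiated and RA-treated arrays overlapped. With RA, Psmb9 was 1.46-fold lower in scramble cells and 1.28-fold higher in knockdown cells. Its RA term in the limma fit was -0.09 (SE 0.28, adjusted p = 0.809), and it turned to 0.115 with median scaling and to 0.135 with the deposited median-normalized values. Tap1, read from the same stretch of promoter sequence, rose in the same fit, but the difference between the 2 genes was not tested. Psmb8, the other subunit of this pair in the MHC, had signals from 64.3 to 83.4 and detection p-values from 0.0226 to 0.233, so no level can be given.

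The genes closest in pattern to Psmb9 over the 4 arrays, by the same distance and among the same 7591 genes as for B2m, were Dhx33, Tbc1d1, Aldh5a1, Tango2 and Cx3cl1, at distances of 0.129 to 0.149 log2 units. All of these have their lowest level in RA-treated scramble cells, as Psmb9 does, which is what choosing them by distance to Psmb9 favours.

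**Figure D2:**
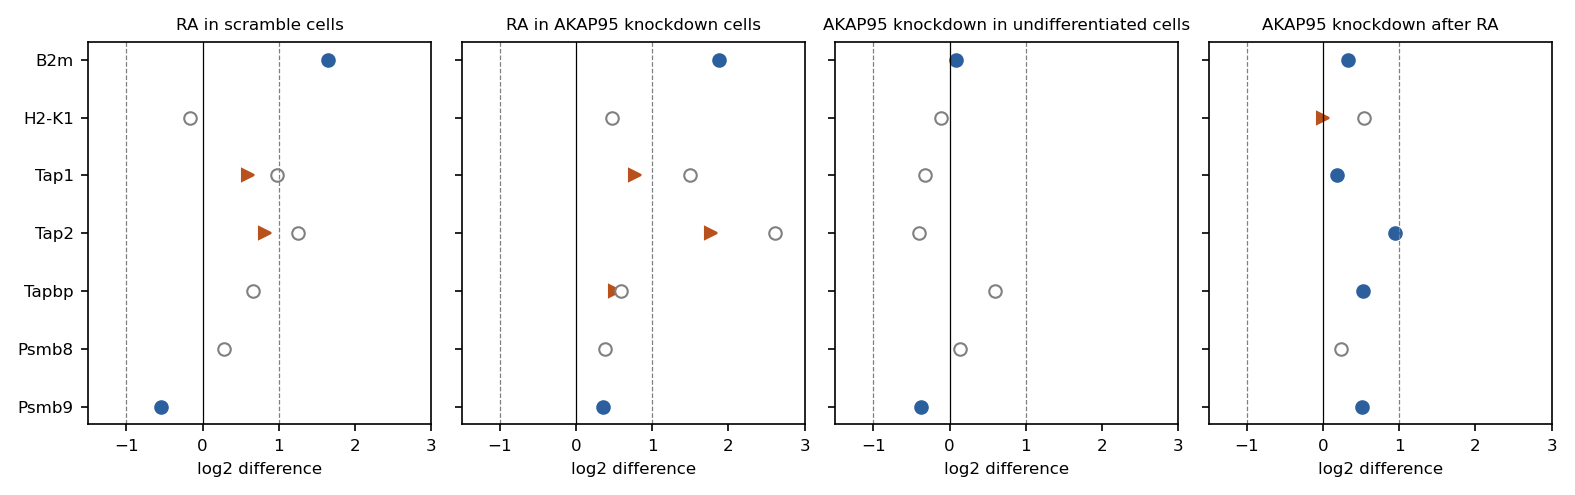
Log2 difference (horizontal axis) of each of the 7 members with a probe in the 4 comparisons. Blue points are differences between 2 detected values, orange triangles are lower bounds, hollow grey points are the values without a bound, and dashed lines mark 2-fold. B2m lies past 2-fold with RA in both populations and the bound of Tap2 does so in knockdown cells, and no member lies past 2-fold between knockdown and scramble cells.

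Read together, 1 of the 5 members compared was at least 2-fold higher with RA in scramble cells (B2m) and none at least 2-fold lower, against 14.2% and 11.8% of all genes compared. With no bounds, or with detection at p under 0.05, Tap2 was a second such gene (log2 1.26). In knockdown cells 2 of 6 were at least 2-fold higher (B2m and Tap2) and none lower, against 12.4% and 9.82% of all genes. Under the same settings Tap1 passed 2-fold there as well (log2 1.49 with no bounds and 1.19 with the wider detection). The median RA difference of the members was 0.60 in scramble cells and 0.65 in knockdown cells on the log2 scale, and that of all genes was 0.00 in both. In the limma fit 3 of the 6 members tested rose with RA and none fell, while 18.8% of all genes rose and 16.2% fell. Tap1, Tap2 and Tapbp were detected only after RA, and H2-K1 only in RA-treated knockdown cells. These genes entered only through arrays where they were high, and their RA bounds could not be negative. The absence of falling members and the member medians were therefore partly set by the detection rule.

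Between knockdown and scramble cells in the undifferentiated state, no member was past 2-fold. Only B2m and Psmb9 were detected there. B2m differed by 0.09 on the log2 scale at its first probe and by -0.03 at its second, so that the order of the 2 undifferentiated arrays was opposite at the 2 probes. Psmb9 was 1.30-fold lower in knockdown cells (log2 -0.38), and 5.61% of the 8734 genes compared had a lower difference. Neither gene was past 2-fold, a size that 0.0687% of all genes reached upward and 0.126% downward.

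After RA, the 5 members detected in both populations had higher values in knockdown than in scramble cells, and no member was past 2-fold. Tap2 came closest, 1.93-fold higher (log2 0.95, signals of 230.5 against 137), and 96.4% of the 9397 genes compared had a lower difference. With median scaling of the arrays Tap2 was past 2-fold (log2 1.01). Tapbp and Psmb9 were each 1.43-fold higher. B2m was 1.25-fold higher at its first probe (log2 0.33) and differed by 0.15 at its second. Tap1 differed by 0.19 on the log2 scale, and for H2-K1 the bound was 0.00. H2-K1 passed detection only in the knockdown cells, so its bound could not be negative, and it counts in the median of the members. The median of the 6 members compared was 0.42, that of all genes 0.00, and 3.17% of all genes were at least 2-fold higher and 3.26% at least 2-fold lower.

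The RA-treated knockdown array held the highest normalized level of 6 of the 7 members (85.7%), as it did for 22.7% of all 17876 genes. Among the members detected on at least 1 array it did so for 5 of 6, against 24.6% of the 9875 such genes. Psmb9 was the exception, with 7.44 on the log2 scale in undifferentiated scramble cells against 7.41 in RA-treated knockdown cells. H2-K1 and Psmb8 count among the 6 although their values on most or all arrays were not detected. H2-K1 passed detection on the RA-treated knockdown array alone, so it entered the 5 of 6 only through that array. Tap1, Tap2 and Tapbp entered only through the RA-treated arrays, where they were high. The 24.6% over all detected genes is therefore not a like share. The limma fit called 0 members for the knockdown term, and over all genes 0% rose and 0% fell, with 405 of 9875 genes at an unadjusted p under 0.05. Tapbp was the member with an unadjusted p under 0.05 (0.56, SE 0.16, unadjusted p = 0.0289, adjusted p = 0.818). That term rests in part on its undifferentiated values, neither of which was detected. Their knockdown difference was 0.592 at the first Tapbp probe and -0.552 at the second, also undetected, probe. Whether the RA effect itself differed between populations cannot be tested with 1 array per group.

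**Figure D3:**
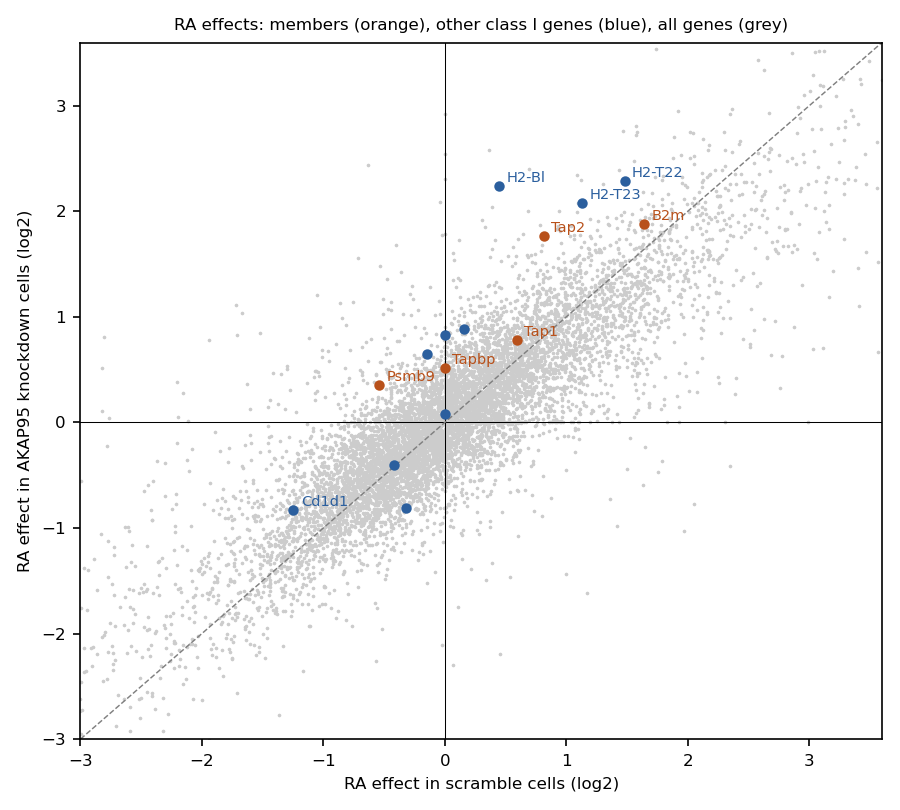
RA effect (log2) in scramble cells on the horizontal axis and in knockdown cells on the vertical axis, for all genes compared in both (grey), the members (orange) and other class I genes (blue), with equality dashed and genes beyond the axes not drawn. Values raised to a bound are drawn at the bound. B2m lies near equality at 1.64 and 1.88, while Tap2, H2-Bl, H2-T22 and H2-T23 lie above it.

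Markers of several cell types had other levels in RA-treated knockdown than in RA-treated scramble cells. Of the ES cell markers, 7 of the 10 compared were at least 2-fold higher in knockdown than in scramble cells after RA, with a median of 1.51 on the log2 scale. The share over all genes was 3.17%. Trophoblast markers (10 with a probe) had 5 detected and a summed signal of 7976 in RA-treated scramble cells against 8 detected and 13465 in RA-treated knockdown cells, and 4 and 5 detected with 3828 and 4521 in the undifferentiated populations. Krt8 made up most of the RA-treated sums, with 6325 and 8319. Krt7, Krt8 and Ctsj rose with RA in both populations. Tfap2c fell from 1724 and 1666 to 536 and 1291, and Eomes from 112 and 92.5 to 58.3 and 75.8. Hand1 was not detected on any array. Neural markers (10 with a probe) had 7 detected and a sum of 3701 in RA-treated scramble cells against 5 and 1554 in RA-treated knockdown cells, and 2 and 3 detected with 827 and 841 before. Endoderm markers (10 with a probe) summed to 3281 and 3186 before RA and to 7729.9 and 5204 after it, and fibroblast markers (11) to 1037 and 899 before and 1785 and 1615 after. Thy1 of the fibroblast list went the other way, from 352 and 217 to 88.4 and 75.7. Endothelial and mesodermal markers (8) had 3 or 4 detected per array and sums of 1202 and 1245 before and 1696 and 1646 after. These sums mix directions, as Gata2 rose from 183 and 288 to 1175 and 1023. Pecam1 fell from 425 and 425 to 91.8 and 161, and Tek from 305 and 229 to 103 and 129.8. The part of these cell types in the class I values, and in those of the other lists below, was not tested.

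Markers of immune cells, which carry abundant class I RNA, were mostly not detected. Of 13 leukocyte markers, 2 were detected on each undifferentiated array (Cd3e and Cd68) and 1 on each RA-treated array (Cd68), and their summed signal ran from 839 to 974. Ptprc, the pan-leukocyte antigen, was not detected on any array. Of 12 markers of class II and antigen-presenting cells, 2 or 3 were detected per array, with sums from 873 to 963. Among them H2-Ab1, a class II chain, had signals of 84.6, 74.7, 153 and 157 and was detected only after RA, whereas Cd74, the invariant chain of class II, fell by 1.36 on the log2 scale in the limma fit (adjusted p = 0.0236).

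Other class I genes were measured by 22 genes with a probe, of which 12 were detected. In the limma fit 2 of the 12 rose with RA, H2-T22 and H2-T23, and Cd1d1 fell, near the shares over all genes (18.8% and 16.2%). H2-T23, which encodes the nonclassical molecule Qa-1, had signals of 98.0, 99.2, 196 and 358, and rose by 1.60 on the log2 scale (adjusted p = 0.0274). H2-T22, a ligand of gamma delta T cells, had 93.6, 85.3, 219.6 and 307, and rose by 1.88 (adjusted p = 0.0179). Cd1d1, which presents lipids, had 180.0, 153, 119 and 132, and fell by 1.04 (adjusted p = 0.0285).

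H2-Bl, a class I gene first known from the blastocyst, differed between populations in the size of its RA difference. Its signals were 217, 152, 351 and 718, and it was 1.37-fold higher with RA in scramble cells and 4.72-fold higher in knockdown cells. Its RA term did not pass the test (adjusted p = 0.106). After RA, H2-Bl was 2.27-fold and H2-T23 2.06-fold higher in knockdown than in scramble cells, and these were the 2 of 12 other class I genes past 2-fold (3.17% of all genes), with a list median of 0.65. H2-T10 and Hfe were detected after RA only in knockdown cells, so neither could come out lower there, which bears on that median. In undifferentiated cells 0 of the 9 compared were past 2-fold and the median was -0.11. As for H2-K1, close copies among these genes leave the source of each signal uncertain.

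Of the loading factors and chaperones of the endoplasmic reticulum, 7 were detected and none passed the limma test with RA. Over all genes 18.8% rose and 16.2% fell. Tapbpl, a relative of tapasin that edits peptides, was detected only in RA-treated knockdown cells, with a signal of 163 against 81.7 to 88.2 on the other arrays. It was the 1 gene of 7 past 2-fold on the normalized scale between knockdown and scramble cells after RA, a size that rests on the background correction. Over all genes 3.17% were at least 2-fold higher in that comparison. The brightest of this list, Pdia3, P4hb and Ganab, had RA terms of 0.11, 0.62 and 0.51 (adjusted p = 0.603, 0.0634 and 0.0834).

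Among the partners of the immunoproteasome, Psmb10 and the activator subunit Psme2 passed the test in opposite directions. So 1 of the 6 rose and 1 fell, near the shares over all genes (18.8% and 16.2%). Psmb10, the third inducible catalytic subunit, had signals of 900.0, 996, 406 and 668 and fell by 1.22 on the log2 scale with RA (adjusted p = 0.0276). Psme2, a subunit of the interferon-inducible PA28 cap, had 295, 306, 549 and 715 and rose by 0.855 (adjusted p = 0.0346). Its partner Psme1 had 1494, 1622, 2179.5 and 3557 and an RA term of 0.795 that did not pass (adjusted p = 0.0651). In knockdown cells Psme1 was 2.14-fold higher with RA. Pomp, the assembly factor of the proteasome, and Psme4, the PA200 cap, were the brightest besides and had RA terms of -0.18 and -0.21 (adjusted p = 0.433 and 0.390). After RA, none of the 6 partners was past 2-fold between knockdown and scramble cells, and their median was 0.32. Over all genes 3.17% were at least 2-fold higher and 3.26% at least 2-fold lower.

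The standard 20S proteasome, from which the immunoproteasome subunits take over, was not past 2-fold in any of its 12 detected genes in any of the 4 comparisons. With RA in scramble cells 14.2% of all genes were at least 2-fold higher and 11.8% at least 2-fold lower. Psmb5, the standard counterpart of Psmb8, had signals of 758, 699.6, 580.0 and 525 and fell by 0.74 on the log2 scale with RA (adjusted p = 0.0399). The other 11 did not pass, where 18.8% of all genes rose and 16.2% fell. Psma2, Psma3 and Psmb4, the brightest, had RA terms of -0.15, -0.09 and -0.25 (adjusted p = 0.520, 0.677 and 0.324). The list's median was 0.01 between knockdown and scramble cells before RA and 0.03 after it.

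Of 26 regulators of class I transcription, 21 were detected, and with RA 5 rose and 1 fell in the limma fit, where 18.8% of all genes rose and 16.2% fell. Nlrc5, the transactivator of class I genes, was not detected on any array (signals from 53.0 to 57.9). Irf2, which binds interferon response elements, had 98.0 and 116 in undifferentiated scramble and knockdown cells against 1139 and 1069.7 after RA, and rose by 3.77 on the log2 scale (adjusted p = 0.00981). Ifngr1, the ligand-binding chain of the interferon gamma receptor, rose by 1.22 (adjusted p = 0.0195), and Jak2, the kinase bound to that receptor, by 1.70 (adjusted p = 0.0117). The nuclear receptors Nr2f1 and Nr2f2, known RA targets, were not detected before RA and rose by 7.27 and 4.92 in the fit (adjusted p = 0.00916 and 0.00949). Nfyb, a subunit of the factor that binds the Y box, fell by 0.82 (adjusted p = 0.0335).

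Irf1, which activates class I and Psmb9 promoters after interferon, was the only regulator of 21 compared past 2-fold between knockdown and scramble cells after RA. Over all genes 3.17% were at least 2-fold higher and 3.26% at least 2-fold lower. Irf1 had signals of 1064, 1037, 748 and 2468. The first 2 were nearly equal, and the 2 RA-treated arrays lay on either side of them. Irf1 was 3.81-fold higher in knockdown than in scramble cells after RA (log2 1.93). Its RA term was 0.19 (SE 0.51, adjusted p = 0.787).

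Genes that interferons induce in many cell types were detected in 6 of 19 cases in each undifferentiated population. After RA 10 were detected in scramble and 14 in knockdown cells. In the limma fit 4 of 14 rose with RA and none fell, against 18.8% and 16.2% of all genes. The 4 were Isg15, Ifit2, Usp18 and Oasl2. Of these, Isg15, Usp18 and Oasl2 were detected only after RA and so entered the fit only through the RA-treated arrays. After RA, 5 of 14 were at least 2-fold higher in knockdown than in scramble cells and none lower, against 3.17% and 3.26% of all genes, with a list median of 0.575. They were the guanylate-binding GTPases Gbp3 (4.21-fold) and Gbp2 (3.63-fold), Oasl2 (3.50-fold), Rsad2 (2.44-fold) and the GTPase Igtp (2.03-fold). Gbp2 had signals of 170.5, 189, 249.6 and 765, so that only the last stood apart. Ifit3, Mx2, Ifi35 and Cxcl10 were detected only in RA-treated knockdown cells and could not come out lower there than in scramble cells. The absence of lower genes and the list median after RA were therefore partly set by the detection rule. In undifferentiated cells 0 of the 6 compared were past 2-fold.

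**Figure D4:**
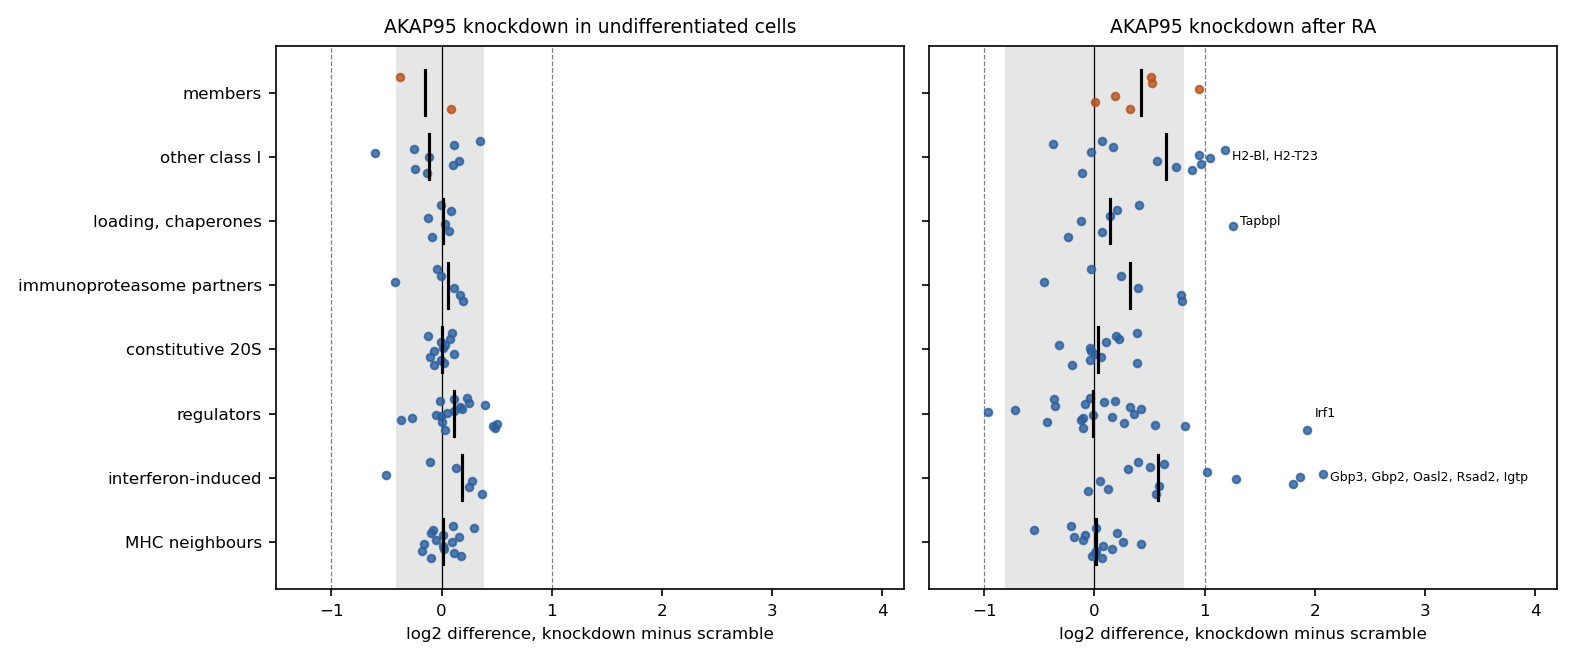
Log2 difference of knockdown minus scramble cells (horizontal axis) for the members (orange) and 7 other lists (blue), in undifferentiated cells and after RA. Each point is a gene, the black bar is the list median, dashed lines mark 2-fold, and the grey band spans the middle of all genes from the 5th to the 95th percentile. After RA the medians are 0.42 for the members, 0.65 for other class I genes and 0.575 for interferon-induced genes, and 0.01 for genes near the MHC members. Genes detected in knockdown but not in scramble cells are drawn at bounds that cannot be negative.

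Genes that lie near the members within the MHC and stand in none of the other lists were set beside them. Whether any of these genes acts on class I expression was not examined. Of 15 detected, 3 rose with RA in the limma fit (Ring1, Pbx2 and Ager) and 2 fell (Daxx and Abcf1), near the shares over all genes (18.8% and 16.2%). Pbx2, a homeodomain cofactor, had the largest term among these, 1.62 on the log2 scale (adjusted p = 0.0121). Between knockdown and scramble cells none was past 2-fold, where 3.17% of all genes were higher and 3.26% lower by that size after RA. The brightest, Ddx39b, Brd2 and Abcf1, differed by -0.19, 0.07 and -0.10 after RA. The list medians were 0.01 before and 0.01 after RA, where that of the members after RA was 0.42. The part of gene position in these values was not tested.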

How the data were processed

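Total RNA of 4 samples, 1 per group, was labelled as biotin cRNA and hybridised to Illumina arrays, per the labels. The deposited intensity is a linear bead signal without normalization, with a detection p-value per probe and array from the scanner software, per the file headers. The deposited ratio is the intensity over the median of its array, and matched for all 25697 probes (relative tolerance 1e-05). Background subtraction by the software is not given in the sources used here. Precision is limited by the number of arrays.

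Intensities were background-corrected from the detection p-values with an offset of 16 (limma 3.58.1, R 4.3.3, as in neqc), taken to log2 and then quantile-normalized. Probes were named through RefSeq accessions for 23866 probes (92.9%) and by symbol otherwise, and a gene was read from its brightest probe. Detection, bounds and the 2-fold rule are defined in the text. An additive limma model (RA and shRNA, 1 residual degree of freedom) was fitted over all 9875 genes, with Benjamini-Hochberg adjustment at 0.05, and was tested on simulated data. Counts and plots used Python 3.11.15. Alternatives changed background, normalization, offset, detection threshold, bounds, probe summary, filter and model terms. The genes named were all members, list genes past 2-fold, the brightest 3 detected of a list with under 3 of these, and the 5 nearest in pattern. Psme2, Psmb5, Nlrc5, Nfyb, Daxx, Cd3e and Ptprc fall outside this rule and were chosen after their values were seen. Members and lists were chosen with earlier results of these data known.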

Additional observations from a re-analysis of the deposited data

Results flagged for a closer look

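Psmb9 differed in direction between the 2 RA comparisons. Its normalized level was lower with RA in scramble cells by a log2 difference of -0.541 and higher in knockdown cells by 0.353, a difference of 0.895 between them. The same 4 values give the knockdown differences of -0.380 in undifferentiated cells and 0.515 after RA, again 0.895 apart. This was not tested, since each group has 1 array, and 89.8% of the 9875 detected genes had a smaller difference between their 2 RA effects. Each of the 4 values is under 2-fold.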

How the results depend on the processing

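No paired analysis was possible because each group has 1 array and the labels give no replicate numbers; for the same reason no array could be left out, since the additive fit on 3 arrays has no residual degrees of freedom. Of 279 values of single members under the alternatives, 271 kept their side of the threshold, 7 passed it newly, 1 lost it, and 0 called values turned sign. Terms that were not called did turn: the RA term of Psmb9 from -0.09 to 0.115 with median scaling and 0.135 with the deposited values, and the knockdown term of Tap1 from -0.07 to 0.02 with the deposited values. The count of members past 2-fold with RA in scramble cells was 1 and became 2, B2m and Tap2, with detection at p under 0.05 and with no bounds (Tap2 1.26 in both). The count for knockdown after RA was 0 and became 1 with median scaling (Tap2, 1.01). With B2m probe 3 not detected, the mean of all B2m probes lowered the RA term of B2m to 1.22, and the mean of its detected probes, chosen after seeing the data, gave 1.82. Bounds depend on the background step: without background correction Tap2 with RA in knockdown cells was at least 1.02 on the log2 scale, and Tap1 at least 0.39. Over all genes, counts past 2-fold differed by over 1.5 times under some settings. With RA in scramble cells 1124 genes were lower, against 702 without background correction and 632 with the deposited median-normalized values. In knockdown cells 1178 were higher, against 748 without background correction, and 936 were lower, against 565 and 433. After RA the knockdown had 298 higher and 306 lower, against 135 and 146 without background correction, 188 and 183 with an offset of 50, and 146 and 133 with the deposited values. In undifferentiated cells it had 6 higher and 11 lower, against 3 and 1, 3 and 3, and 3 and 4 under the same settings, 20 and 24 with no bounds, 10 and 14 with detection at 0.05, and 4 and 7 with the mean of all probes. Of the genes past 2-fold with RA in knockdown cells, 55.7% were higher, and 70.1% with the deposited values. Signals of H2-K1, Psmb8 and Tapbp near background limit what can be said of them.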
